A study of Mus musculus with 8 samples.

Results

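The keratin genes were followed across the 3 groups of arrays. They were taken as every probe other than control probes whose gene symbol is Krt followed by a number and at most 1 letter. This rule used names alone and no measured value. It gave 64 probes for 53 genes, of 22423 genes tested in the whole series, and 34 of the 53 keratin genes entered the tests. Krt7, Krt8, Krt18 and Krt19, the keratins of simple epithelia, were set beside the other 49.

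The cells were R1, a line of mouse embryonic stem cells, grown for 48 h as embryoid bodies, the aggregates in which such cells begin to differentiate. The Control group (3 arrays) had received a control siRNA. The groups siRNA 1 (3 arrays) and siRNA 2 (2 arrays) had received 1 of a pair of siRNAs against CnAb1, a splice variant of the catalytic subunit of the phosphatase calcineurin made from the gene Ppp3cb. RNA from 48 h after transfection was read on 1-colour Agilent arrays, and the labels name neither the sequences of the siRNAs nor separate cultures behind the replicates. The p-values below therefore speak of the spread among the arrays, which may be technical.

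Keratins are the intermediate filament proteins of epithelial cells. A filament is built from pairs of a type I and a type II keratin, and the pair in use marks the kind of epithelium. Krt8 (type II) and Krt18 (type I) are the first keratins of the mouse embryo and line simple epithelia, where Krt7 (type II) and Krt19 (type I) join them. Krt5 and Krt14 form the pair of basal layers in stratified epithelia, Krt1 and Krt10 the pair above them, and a large set of keratins builds the hair shaft and the sheath around it. In the mouse the genes lie in a type I cluster on chromosome 11 and a type II cluster on chromosome 15, with Krt18, a type I gene, at the end of the latter beside Krt8.

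All 4 simple-epithelial keratins gave a signal well above background on all 8 arrays, and so did 23 of the 49 others. Of the 49 others, 8 were well above background on no array, 11 on some arrays but on every array of no group, and 30 were tested. The number of others above background on an array ran from 28 on Control 1 to 36 on siRNA 1 replicate 2. Among the 16 keratins known from stratified epithelia 11 were tested, against 5 of 9 of the hair follicle sheath, 6 of 14 of hair and nail, and 8 of 10 of the rest. This sorting by tissue was written after values had been seen and serves only to order the account.

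**Figure D1:**
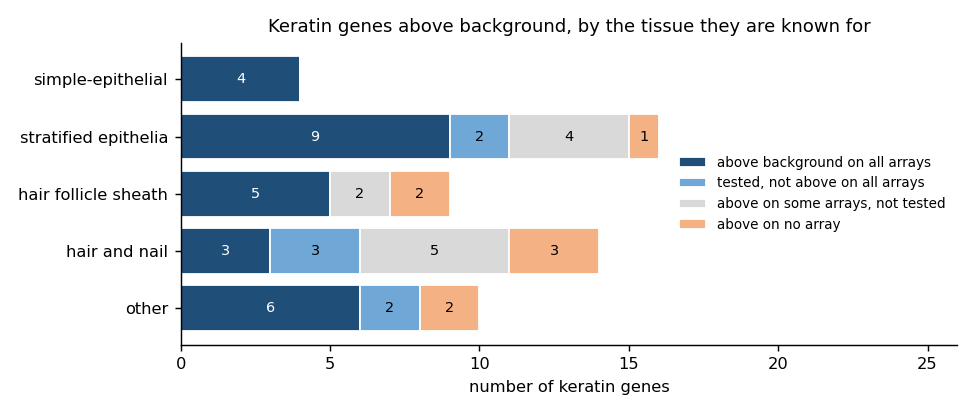
Number of keratin genes (horizontal axis) by the tissue they are known for, split by how many of the 8 arrays read the gene well above background. All 4 simple-epithelial keratins were above background on all arrays, and 8 of the 53 genes on none.

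The 8 keratins above background on no array were Krt6a, Krt20, Krt25, Krt26, Krt32, Krt39, Krt78 and Krt87. Krt20 is a keratin of intestinal and urothelial epithelium, Krt25 and Krt26 belong to the inner root sheath of the hair follicle, and Krt32, Krt39 and Krt87 are hair keratins. The untested 11 were above background on 4 arrays (Krt12, Krt74), 3 arrays (Krt33b, Krt75, Krt76, Krt77), 2 arrays (Krt36) or 1 array (Krt4, Krt35, Krt40, Krt84). Krt12 is the keratin of the cornea and Krt4 that of the oral and oesophageal lining. Krt83, which RefSeq lists beside Krt86, had no matched probe.

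A second probe was present for 11 of the 53 genes, and the probe with the higher mean over all arrays was used, so the second was the dimmer one by construction. The pairs still disagreed on detection. For Krt13, Krt28 and Krt222 the probe used was well above background on all 8 arrays and the second on 0. For Krt2, Krt5, Krt6b and Krt10 the second probe was above background on 5, 2, 4 and 6 of the 8 arrays. Close relatives such as Krt6a and Krt6b, Krt14, Krt16 and Krt17, or Krt81 and Krt86 share much sequence, and whether a probe also binds a relative was not tested.

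Slides split the arrays into 3 sets, the first of which differed from the rest. Slide 1 held replicate 1 of every group, slide 2 held Control 2 and siRNA 1 replicate 3, and slide 3 held Control 3, siRNA 1 replicate 2 and siRNA 2 replicate 2. The first principal component over all genes took 42.5% of the variance, with scores of -34.6 to -32.2 on slide 1 and 13.3 to 26.3 on the others. The share of spots well above background was 68.0% to 75.1% over the 8 arrays, and the 75th percentile of processed intensity was 838.9 to 1032.7. Ppp3cb was 0.19 log2 units lower over the siRNA arrays than over the Control arrays, with an exact two-sided permutation p = 0.179, and its probe need not read the CnAb1 variant. The Control arrays span all 3 slides, so that within-slide differences stand beside the keratin results below. All levels are log2 processed intensity minus the 75th percentile of the array, so 0 is the 75th percentile of the array, and they are given in the order of the replicate numbers. A level compares arrays for 1 gene and not 1 gene with another.

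Neither siRNA changed a keratin past the threshold. With limma and Benjamini-Hochberg adjustment over all 22423 genes, 0 of 34 keratins were called at an adjusted p under 0.05 for the mean of both siRNAs against Control, as were 0.00% of all genes. Without adjustment, p was under 0.05 for 6 of 34 keratins (Krt7, Krt17, Krt23, Krt27, Krt42 and Krt82), 4 of them higher and 2 lower, beside 3.58% of all genes. The 2 lower, Krt23 and Krt82, entered the tests only through Control and siRNA 1 and were lowest in siRNA 2. Their place in this count is therefore no support. The median difference was 0.13 for the 4 simple-epithelial keratins, 0.01 for the other 30 and 0.01 for all genes.

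Krt8, the type II partner of simple epithelia, read 0.83, 0.91 and 0.94 on the Control arrays, 0.80, 1.10 and 0.55 on the siRNA 1 arrays and 0.83 and 0.85 on the siRNA 2 arrays. The groups overlapped, and the highest and the lowest value both belonged to siRNA 1. The difference of the mean of both siRNAs from Control was -0.07 (SE 0.13), with a 95% interval of -0.36 to 0.23 and an adjusted p from limma of 1.0.

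Krt18, the type I partner of Krt8, read 3.65, 3.45 and 3.64 on the Control arrays, 3.42, 3.67 and 3.39 on the siRNA 1 arrays and 3.50 and 3.45 on the siRNA 2 arrays. The groups overlapped, with siRNA 1 replicate 2 the highest and siRNA 1 replicate 3 the lowest. The difference was -0.10 (SE 0.10), with a 95% interval of -0.32 to 0.13. For the pair that makes the first filaments of the embryo, a rise beyond 0.23 log2 units over both siRNAs thus lay outside both intervals. With each siRNA alone the Krt8 interval reached 0.25 (siRNA 1) and 0.31 (siRNA 2). The intervals rest on the spread among the arrays, which may be technical.

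Krt19, a type I keratin without the usual tail domain, read -0.95, -0.79 and -0.87 on the Control arrays, -0.08, -0.18 and -0.98 on the siRNA 1 arrays and -0.69 and -0.68 on the siRNA 2 arrays. Within siRNA 1, 2 arrays were above every other array and 1 was below every Control array, while the siRNA 2 arrays lay just above all Control arrays. The difference was 0.32 (SE 0.20), with a 95% interval of -0.16 to 0.80. Against the Control array of the same slide, siRNA 1 gave 0.87 on slide 1, -0.19 on slide 2 and 0.69 on slide 3, and siRNA 2 gave 0.25 and 0.19 on slides 1 and 3.

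Krt7, a type II keratin of ducts, lung and trophoblast, read -3.09, -3.77 and -3.58 on the Control arrays, -3.12, -2.96 and -3.20 on the siRNA 1 arrays and -3.17 and -2.91 on the siRNA 2 arrays. The 5 siRNA arrays lay between -3.20 and -2.91, above Control 2 and Control 3, with Control 1 among them. The difference was 0.42 (SE 0.17), with an unadjusted p of 0.04 and an adjusted p of 1.0 from limma. It was -0.03 and -0.08 within slide 1, 0.57 within slide 2, and 0.63 and 0.68 within slide 3, and without the arrays of slide 1 it came to 0.68.

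**Figure D2:**
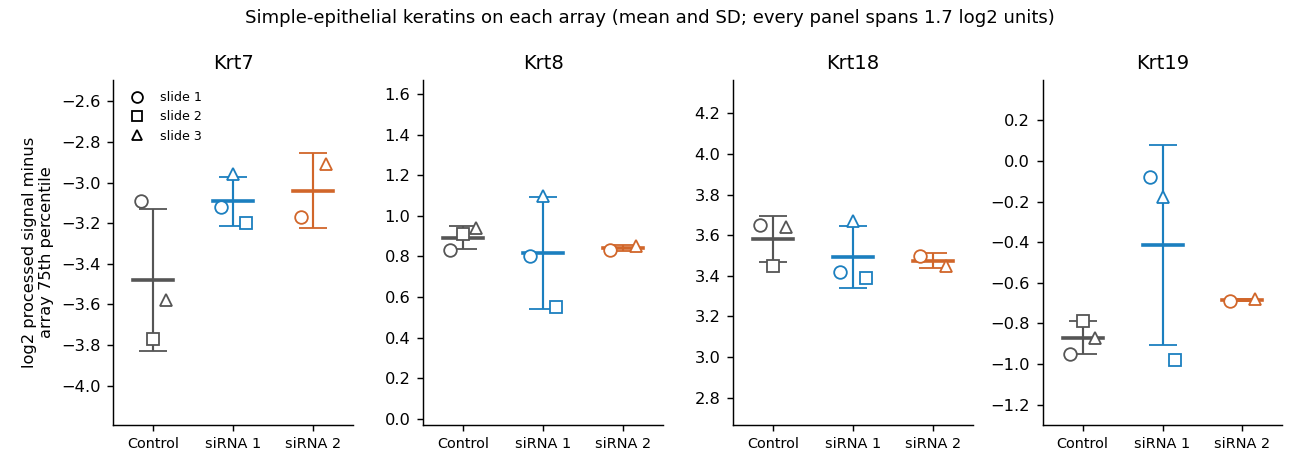
Level of the 4 simple-epithelial keratins on each array (vertical axis, log2 processed intensity relative to the array's 75th percentile) in Control, siRNA 1 and siRNA 2. Symbols give the slide, thick lines the group mean and thin bars the SD. Krt8 and Krt18 overlap between groups, and the Control array of slide 1 sits with the siRNA arrays for Krt7.

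Over the 8 arrays Krt8 and Krt18 gave Pearson's r = 0.71 (exact permutation p = 0.0215, 0.129 after Benjamini-Hochberg adjustment over 6 pairs of simple-epithelial keratins) and Spearman's rho = 0.71 (exact permutation p = 0.0576, adjusted 0.346). Without siRNA 1 replicates 2 and 3, the arrays farthest from the median of Krt8, r was 0.34. Leaving out extreme arrays narrows the range of Krt8, so this cannot tell whether the relation rests on them. The other 5 pairs gave r between -0.05 and 0.45, with adjusted p-values of 0.68 to 0.975 from the same exact test. Both groups and slides are mixed in these points. As deviations from group means, Krt8 and Krt18 gave r = 0.70.

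The 150 bases before the start of Krt8, Krt18 and Krt7 are shown because these genes lie in 1 cluster, with Krt8 and Krt18 as direct neighbours. Krt5, a basal keratin that differed between slides, is added from the same cluster. The sequences are RefSeq's for GRCm38.p6, read 5′ to 3′ on the strand of the gene, at chr15:102004343-102004492 (Krt8, minus strand), chr15:102028066-102028215 (Krt18, plus strand), chr15:101412253-101412402 (Krt7, plus strand) and chr15:101712906-101713055 (Krt5, minus strand). Capitals mark 3 motifs on either strand. These are TATAAA, the core of the TATA box, the overlapping letters of ATAAAA, and the GC box core GGGCGG, and a match on the other strand is printed as its reverse complement.
Krt8: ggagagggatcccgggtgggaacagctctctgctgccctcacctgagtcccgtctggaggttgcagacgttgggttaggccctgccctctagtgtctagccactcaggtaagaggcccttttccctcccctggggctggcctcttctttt
Krt18: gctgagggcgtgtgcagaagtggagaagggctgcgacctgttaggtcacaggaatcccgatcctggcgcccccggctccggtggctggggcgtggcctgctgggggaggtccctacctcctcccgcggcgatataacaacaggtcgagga
Krt7: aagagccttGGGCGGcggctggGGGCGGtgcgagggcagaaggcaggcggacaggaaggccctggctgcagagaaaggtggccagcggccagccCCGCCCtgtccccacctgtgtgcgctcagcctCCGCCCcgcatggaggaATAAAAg
Krt5: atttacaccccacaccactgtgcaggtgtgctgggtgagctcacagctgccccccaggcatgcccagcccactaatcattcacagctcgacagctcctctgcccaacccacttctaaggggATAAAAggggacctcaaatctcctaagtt

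Krt7 held GGGCGG 4 times and ATAAAA once, and Krt5 held ATAAAA once. The Krt8 and Krt18 windows held none of the 3 motifs. In all, 7 motifs were searched on both strands over the 250 bases before the start, in 37 RefSeq entries that matched 36 of the 53 keratin genes, and the 3 in capitals were picked after their shares were known. GGGCGG was in 2 of the 37 keratin entries (Krt7 and Krt75) and in 32.7% of all 32851 entries. TATAAA was in 17 of 37 against 12.4% of all entries, and ATAAAA, which overlaps it in TATAAAA, in 20 of 37 against 17.0%. TGANTCA was in 2 of 37 (6.75% of all entries), CCCCNCCC in 7 (30.8%), AACCGGTT in 0 (0.116%) and CACCC in 29 (52.0%).

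Among the other 30 keratins, 16 were higher and 14 lower over both siRNAs, where 53.0% of all genes were higher. The groups did not overlap for 3 of the 30, Krt17, Krt27 and Krt42, beside 3.46% of all genes. All 3 were higher, and 2.48% of all genes did not overlap and were higher. Krt17, an inducible keratin of skin appendages and wounded epidermis, read -3.19, -2.85 and -3.00 on the Control arrays, -2.80, -2.78 and -2.77 on the siRNA 1 arrays and -2.81 and -2.71 on the siRNA 2 arrays. All 5 siRNA arrays were above all 3 Control arrays, and the difference was 0.24 (SE 0.09, adjusted p 1.0 from limma).

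Krt27, of the inner root sheath, read -4.38, -4.09 and -4.10 on the Control arrays, -3.73, -3.96 and -4.02 on the siRNA 1 arrays and -3.61 and -3.82 on the siRNA 2 arrays. Its difference was 0.38 (SE 0.11), and within slides it was 0.65 and 0.77 on slide 1, 0.07 on slide 2, and 0.14 and 0.27 on slide 3. Krt42, a type I gene next to Krt17, read -3.01, -2.30 and -2.62 on the Control arrays, -1.77, -2.01 and -2.30 on the siRNA 1 arrays and -2.29 and -2.21 on the siRNA 2 arrays. Its difference was 0.51 (SE 0.18), from 1.24 and 0.73 within slide 1 to 0.00 within slide 2, where the siRNA 1 array and the Control array both read -2.30. The separation of Krt42 is thus a gap of 0.00193 log2 units, against 0.0328 for Krt17 and 0.0711 for Krt27. Without the arrays of slide 1 the differences of Krt27 and Krt42 were 0.19 and 0.28.

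Krt15 and Krt23 had fitted differences of at least 1.5-fold, both lower, as had 0.540% of all genes, and each rests in part on 1 array that was not well above background. Krt15, a basal keratin that also marks hair follicle stem cells, read -5.45, -4.60 and -5.05 on the Control arrays, -7.76, -4.89 and -4.85 on the siRNA 1 arrays and -5.58 and -5.33 on the siRNA 2 arrays. Its difference of -0.61 (SE 0.68) rests on siRNA 1 replicate 1, the lowest array by far and not well above background. The difference was -0.13 without that array, and -0.34, under 1.5-fold, with the array set at its lowest signal well above background. Krt23, a type I keratin of glandular and intestinal epithelia, read -5.77, -4.92 and -5.16 on the Control arrays, -5.66, -5.99 and -5.98 on the siRNA 1 arrays and -5.94 and -7.85 on the siRNA 2 arrays. It was lowest on siRNA 2 replicate 2, again not well above background, and its difference was -1.10 (SE 0.42, adjusted p 1.0 from limma). The difference was -0.67 with that array at its lowest signal well above background and -0.62 without it. It was -1.58 without siRNA 2 replicate 1, -1.88 without the arrays of slide 1 and -0.22 after normexp, a background correction whose offset compresses differences of dim probes.

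With siRNA 1 alone, 23 of the other 30 keratins were higher and 7 lower than Control, where 58.3% of all genes were higher, with a median of 0.07 beside 0.02 for all genes. Limma called 0 of 34, beside 0.00% of all genes, and 1 of 34 (Krt42) had an unadjusted p under 0.05 beside 3.52% of all genes. The siRNA 1 arrays were apart from the Control arrays for Krt17, Krt27 and Krt42, 3 of 34 beside 7.95% of all genes, and all 3 were higher, beside 5.47%. Krt42 had the largest difference upward at 0.62 (SE 0.20).

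With siRNA 2 alone, 11 of the other 30 were higher and 19 lower, where 49.9% of all genes were higher, with a median of -0.09 beside 0.00 for all genes. Again 0 of 34 were called by limma, beside 0.00% of all genes, and 3 of 34 (Krt23, Krt27 and Krt82) had an unadjusted p under 0.05 beside 3.36% of all genes. The 2 siRNA 2 arrays were apart from the 3 Control arrays for 13 of 34 keratins, beside 16.9% of all genes. Of the 13, 5 were higher (Krt17, Krt19, Krt27, Krt28 and Krt42), beside 8.82% of all genes, and 8 lower (Krt14, Krt16, Krt23, Krt31, Krt33a, Krt73, Krt81 and Krt82), beside 8.10%. Krt23 was not well above background on siRNA 2 replicate 2, so it entered the tests only through Control and siRNA 1, where it was higher. Its place in the counts of low p-values and of groups apart is therefore no support. Its difference of -1.61 came to -0.75 with that array at its bound and to -0.24 under normexp.

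Krt82, a type II keratin of the hair cuticle, had the smallest p-value of the family in the siRNA comparisons. It read -5.45, -5.46 and -5.60 on the Control arrays, -5.57, -5.60 and -5.82 on the siRNA 1 arrays and -6.22 and -6.21 on the siRNA 2 arrays. Control and siRNA 1 were well above background on all their arrays and siRNA 2 on neither of its 2, and siRNA 2 did not overlap with either group. The fitted difference of siRNA 2 from Control was -0.71 (SE 0.11), with an unadjusted p of 0.000289 and an adjusted p of 0.648 from limma. Krt82 entered the tests only through Control and siRNA 1, the groups in which it was higher. Its p-values, and its place in the counts of low p-values and of groups apart, are therefore no support for a difference. As siRNA 2 was not well above background it has only a bound. For the bound, each dim array took the higher of its own signal and the lowest signal well above background there. Control then came to 1.60-fold and siRNA 1 to 1.43-fold of siRNA 2. These folds come from the same filtered values and hold for the main processing alone, so they are no support for a difference either. Within slides 1 and 3 siRNA 2 lay 0.77 and 0.60 below Control, and after normexp the difference was -0.10.

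**Figure D3:**
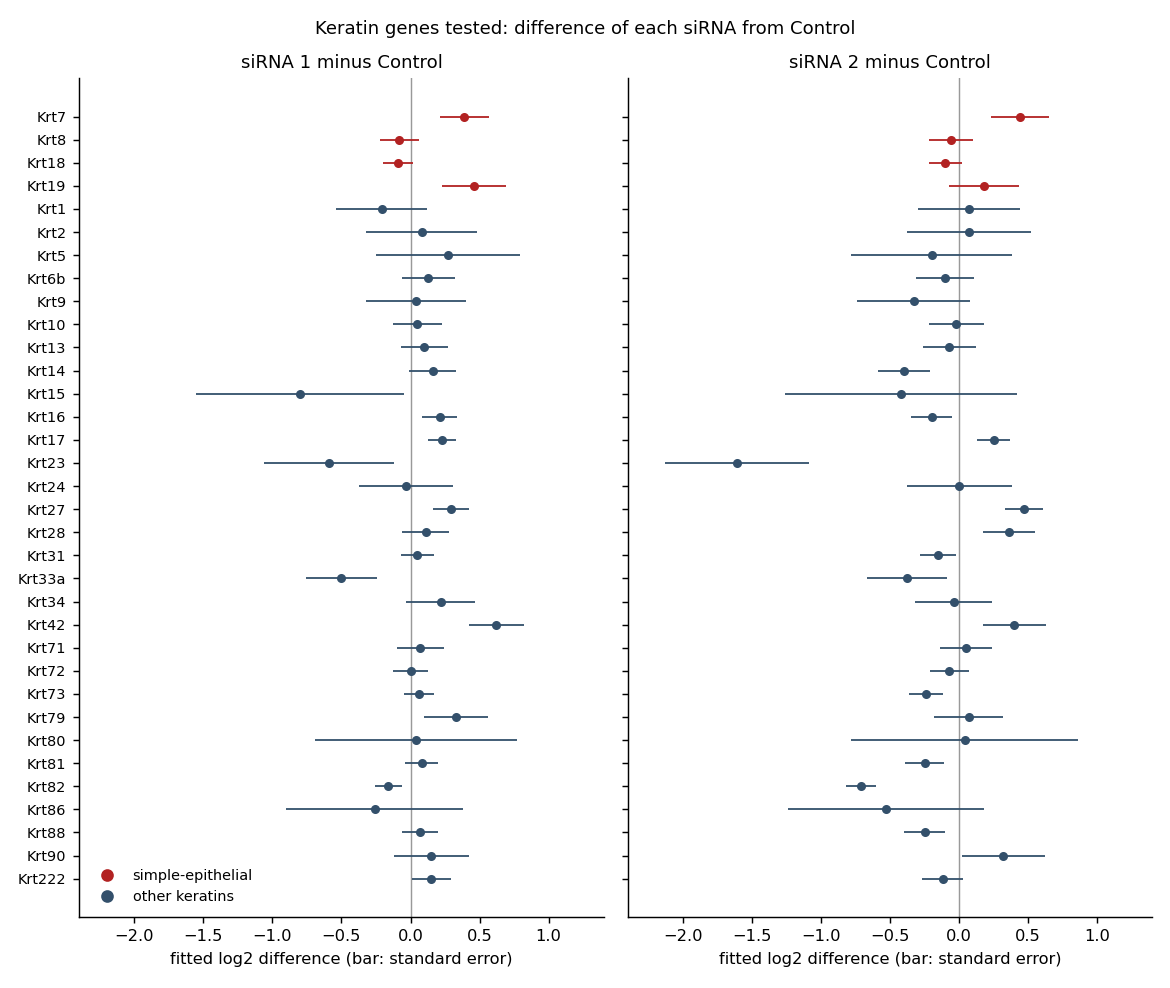
Fitted log2 difference from Control (horizontal axis) of the 34 keratins tested, for siRNA 1 and siRNA 2, with bars of 1 standard error. Krt42 is highest under siRNA 1, and none passed the adjusted threshold. The lowest point, Krt23 under siRNA 2 at -1.61, includes an array that was not well above background and comes to -0.75 with that array at its bound.

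Between the siRNAs, 21 of the other 30 keratins were lower with siRNA 2 than with siRNA 1, and 9 higher, where 42.6% of all genes were higher, with a median of -0.21 beside -0.03 for all genes. That median was -0.09 without siRNA 2 replicate 1, -0.10 without siRNA 1 replicate 2, -0.12 with slide as a term and -0.05 under normexp. For the 4 simple-epithelial keratins the median was 0.00. Limma called 0 of 34 and 0.00% of all genes, while 5 of 34 (Krt14, Krt16, Krt73, Krt81 and Krt82) had an unadjusted p under 0.05, beside 3.30% of all genes. The siRNA arrays did not overlap for 8 of 34, beside 19.0% of all genes, and all 8 were lower with siRNA 2, beside 11.7%. Both siRNAs were set against the same Control arrays, so their differences from Control are not independent.

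Krt14, the basal partner of Krt5, read -3.15, -2.79 and -2.76 on the Control arrays, -3.04, -2.70 and -2.48 on the siRNA 1 arrays and -3.36 and -3.23 on the siRNA 2 arrays. Krt16, an inducible keratin of the skin, read -1.78, -1.57 and -1.70 on the Control arrays, -1.74, -1.39 and -1.29 on the siRNA 1 arrays and -1.95 and -1.83 on the siRNA 2 arrays. Krt73, of the inner root sheath, read -0.21, -0.08 and -0.25 on the Control arrays, -0.32, -0.08 and 0.04 on the siRNA 1 arrays and -0.43 and -0.41 on the siRNA 2 arrays. In all 3 genes both siRNA 2 arrays lay below every other array, with differences from siRNA 1 of -0.56 (SE 0.19), -0.41 (SE 0.15) and -0.30 (SE 0.12).

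The hair keratins gave similar or smaller values. Krt81, a type II hair keratin, read -5.03, -4.64 and -4.93 on the Control arrays, -4.94, -4.69 and -4.74 on the siRNA 1 arrays and -5.07 and -5.17 on the siRNA 2 arrays. Krt31, a type I hair keratin, read -2.10, -2.20 and -1.92 on the Control arrays, -2.11, -1.82 and -2.15 on the siRNA 1 arrays and -2.24 and -2.20 on the siRNA 2 arrays. In both, the siRNA 2 arrays were the lowest or level with the lowest of the other groups, at -0.33 (SE 0.14) and -0.20 (SE 0.13) from siRNA 1.

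Krt88 read -4.53, -4.10 and -4.28 on the Control arrays, -4.40, -4.20 and -4.10 on the siRNA 1 arrays and -4.61 and -4.50 on the siRNA 2 arrays. Krt222, a member with a distant sequence, read -0.83, -0.31 and -0.54 on the Control arrays, -0.33, -0.41 and -0.51 on the siRNA 1 arrays and -0.72 and -0.63 on the siRNA 2 arrays. The siRNA 2 arrays lay below all siRNA 1 arrays in both, and for Krt222 the siRNA 1 arrays were all above and the siRNA 2 arrays all below the Control mean. Krt28, of the inner root sheath, was apart from Control in the other direction and read -2.99, -2.85 and -2.90 on the Control arrays, -2.46, -2.83 and -3.13 on the siRNA 1 arrays and -2.47 and -2.65 on the siRNA 2 arrays.

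Krt33a, a type I hair keratin, read -4.78, -4.74 and -5.14 on the Control arrays, -4.92, -5.28 and -5.97 on the siRNA 1 arrays and -5.30 and -5.24 on the siRNA 2 arrays. It was lowest on siRNA 1 replicate 3, and its difference over both siRNAs was -0.44 (SE 0.23). Krt33a was well above background on 7 of the 8 arrays, and siRNA 1 replicate 3 was the exception.

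Krt34, a type I hair keratin, read -6.31, -5.60 and -5.50 on the Control arrays, -5.73, -5.28 and -5.73 on the siRNA 1 arrays and -6.05 and -5.63 on the siRNA 2 arrays. Krt71, of the inner root sheath, read -4.07, -3.99 and -3.77 on the Control arrays, -4.20, -3.70 and -3.73 on the siRNA 1 arrays and -4.07 and -3.71 on the siRNA 2 arrays. Krt72, also of the inner root sheath, read -5.51, -5.32 and -5.19 on the Control arrays, -5.44, -5.20 and -5.37 on the siRNA 1 arrays and -5.27 and -5.55 on the siRNA 2 arrays. Their groups overlapped, with differences of 0.09 (SE 0.22), 0.06 (SE 0.16) and -0.03 (SE 0.11). Krt34 was not well above background on Control 1, its lowest array.

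The pair of the upper epidermal layers gave no separation by group. Krt1 read -5.60, -6.05 and -5.09 on the Control arrays, -6.36, -5.49 and -5.51 on the siRNA 1 arrays and -5.24 and -5.77 on the siRNA 2 arrays. Krt10 read -2.07, -2.62 and -2.29 on the Control arrays, -2.54, -2.24 and -2.05 on the siRNA 1 arrays and -2.47 and -2.22 on the siRNA 2 arrays. Differences were -0.07 (SE 0.30) and 0.02 (SE 0.17). Krt1 was well above background on 2 of 3 Control arrays, 2 of 3 siRNA 1 arrays and 2 of 2 siRNA 2 arrays. It thus entered the tests through siRNA 2 alone, the group with its highest mean.

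Krt13, a keratin of mucosal epithelia, read -4.26, -3.72 and -3.95 on the Control arrays, -4.13, -3.73 and -3.78 on the siRNA 1 arrays and -4.14 and -3.95 on the siRNA 2 arrays. Krt6b, inducible in wounded skin, read -3.16, -3.59 and -3.14 on the Control arrays, -3.03, -2.94 and -3.53 on the siRNA 1 arrays and -3.34 and -3.47 on the siRNA 2 arrays. Both overlapped between all groups, with differences of 0.02 (SE 0.15) and 0.01 (SE 0.17) over both siRNAs.

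Krt79, a keratin of the upper hair canal, read -2.31, -1.46 and -1.64 on the Control arrays, -1.39, -1.42 and -1.60 on the siRNA 1 arrays and -1.92 and -1.54 on the siRNA 2 arrays. Krt90 read -5.88, -4.86 and -5.29 on the Control arrays, -5.06, -5.11 and -5.39 on the siRNA 1 arrays and -4.75 and -5.29 on the siRNA 2 arrays. Control 1 was the lowest array of both genes, and for Krt90 it was not well above background. The differences over both siRNAs were 0.20 (SE 0.20) and 0.24 (SE 0.24).

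Keratins were called only between slides. With group and slide as terms, limma called 3 of the 34 keratins (8.82%) between slide 1 and the other slides. That share was near the 6.48% of all genes that were called. All 3 were lower on slide 1, and 5.68% of all genes were called and lower there. These were Krt80, a type II keratin of many epithelia, Krt86, a hair keratin, and Krt5. None of the 4 simple-epithelial keratins was called, and their median difference was 0.10, beside -0.15 for the other 30 and -0.03 for all genes. On slide 1, 8 of the other 30 were higher, as were 42.0% of all genes.

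Krt80 read -3.02, -1.67 and -1.0 on the Control arrays, -2.83, -0.83 and -1.92 on the siRNA 1 arrays and -2.73 and -0.98 on the siRNA 2 arrays. The 3 arrays of slide 1 were the lowest of all 8, the 3 arrays of slide 3 the highest, and slide 2 lay between without overlap. The difference of slide 1 from the others was -1.51 (SE 0.11, adjusted p 0.00165 from limma). Arrays of 1 slide lay within 0.29 of each other whatever their siRNA, and the spread within groups was larger than for 99.3% of all genes.

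Krt86 read -4.09, -2.77 and -2.74 on the Control arrays, -4.58, -2.77 and -3.03 on the siRNA 1 arrays and -4.51 and -2.96 on the siRNA 2 arrays. Slide 1 was lower than every other array, at -1.50 (SE 0.10, adjusted p 0.00135 from limma). Krt5 read -4.27, -2.82 and -2.62 on the Control arrays, -3.53, -2.61 and -2.75 on the siRNA 1 arrays and -4.02 and -2.83 on the siRNA 2 arrays. Slide 1 was again the lowest, at -1.18 (SE 0.15, adjusted p 0.0098 from limma). For these 3 genes the differences of both siRNAs from Control, 0.04, -0.40 and 0.03, had standard errors of 0.66, 0.58 and 0.47, the slides being spread over the groups. Within slides Krt86 was below the Control array in all 5 pairs, at -0.48, -0.27 and -0.03 with siRNA 1 on slides 1, 2 and 3 and at -0.41 and -0.22 with siRNA 2 on slides 1 and 3. Both siRNAs share the Control arrays of slides 1 and 3, so the 5 pairs are not independent and no siRNA effect is read from them. For Krt5 the within-slide values ran from -0.22 to 0.73 and for Krt80 from -0.24 to 0.29. The slide differences of Krt5, Krt80 and Krt86 were -0.49, -1.09 and -0.67 under normexp and -0.70, -1.32 and -0.88 with no background correction.

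A test for any difference among the 3 slides, added after the values were seen, called 5 of 34 keratins, beside 5.45% of all genes. Krt9, the keratin of palm and sole epidermis, and Krt24 joined Krt5, Krt80 and Krt86. Krt9 read -3.74, -3.26 and -4.43 on the Control arrays, -3.57, -4.34 and -3.41 on the siRNA 1 arrays and -3.85 and -4.43 on the siRNA 2 arrays, with slide means of -3.72, -3.34 and -4.40 (adjusted p 0.0138 from limma's F test) and at most 0.28 between arrays of 1 slide. Krt24, a type I gene, read -4.81, -3.95 and -5.11 on the Control arrays, -4.96, -4.88 and -4.11 on the siRNA 1 arrays and -4.68 and -4.56 on the siRNA 2 arrays, with slide means of -4.81, -4.03 and -4.85 (adjusted p 0.0317 from limma's F test). So Krt80 was highest on slide 3, where Krt9 was lowest, and Krt24 was highest on slide 2.

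Krt2, a keratin of the upper epidermis, read -1.86, -2.06 and -2.57 on the Control arrays, -1.68, -2.46 and -2.12 on the siRNA 1 arrays and -1.36 and -2.84 on the siRNA 2 arrays. It ran opposite to Krt80, with slide means of -1.64, -2.09 and -2.62, and was 0.71 (SE 0.16) higher on slide 1, with an adjusted p of 0.063 from limma. It was called under quantile normalization, median scaling, normexp and no background correction. What differed between the slides was not tested.

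**Figure D4:**
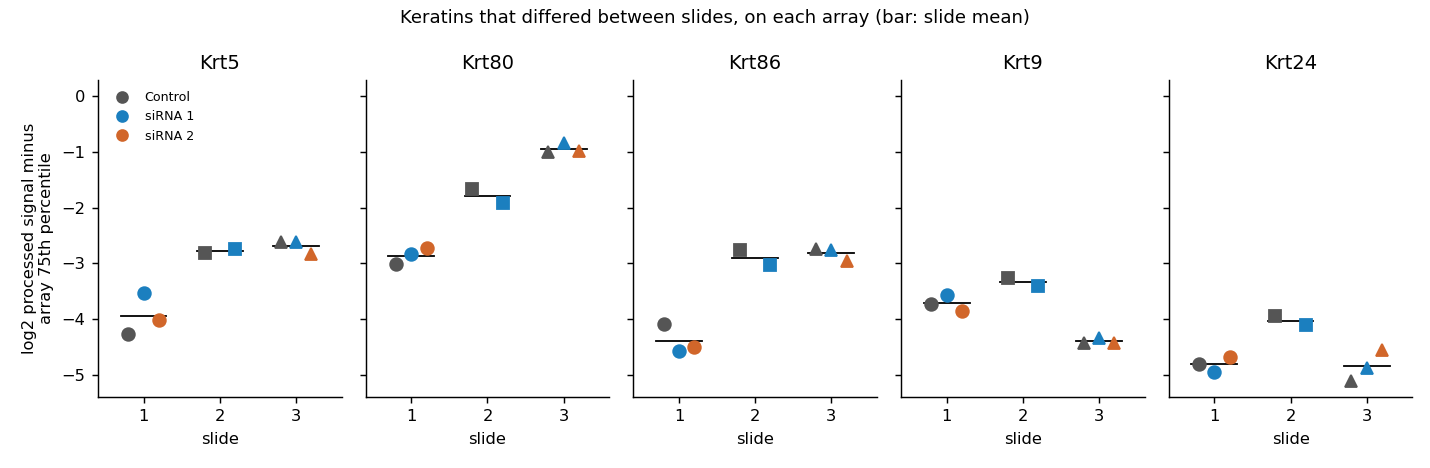
Level of 5 keratins on each array (vertical axis, log2 processed intensity relative to the array's 75th percentile) by slide, with colour for the group and a bar at the slide mean. The slide 1 arrays are the lowest for Krt5, Krt80 and Krt86, and Krt80 ranges from -3.02 on slide 1 to -0.83 on slide 3. Krt5 spans 0.73 within slide 1, and slides 1 and 3 overlap for Krt24.

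The slide differences were also read along the genome, as a description. RefSeq lists 27 keratin genes on chromosome 11 and 27 on chromosome 15, and 17 of each were tested here. The 3 genes called lower on slide 1 all lay in the chromosome 15 cluster. Krt80 lay at its outer end beside Krt7, Krt86 beside Krt81, and Krt5 beside Krt71. Krt7, Krt81 and Krt71 had differences of 0.17, -0.16 and -0.33 and were not called, although Krt71 was lower on all 3 arrays of slide 1 than on the others (unadjusted p 0.0132, adjusted p 0.121 from limma). Whether neighbours differ alike was not tested. In the chromosome 11 cluster the median difference was -0.08 and in that of chromosome 15 it was -0.14. Of the 17 tested in each, 11 and 12 were lower on slide 1. Krt15, Krt34 and Krt13, on chromosome 11, were also lower on every slide 1 array than on the others, at -1.41, -0.44 and -0.36. They were not called, and Krt15 and Krt34 each include a slide 1 array that was not well above background.

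**Figure D5:**
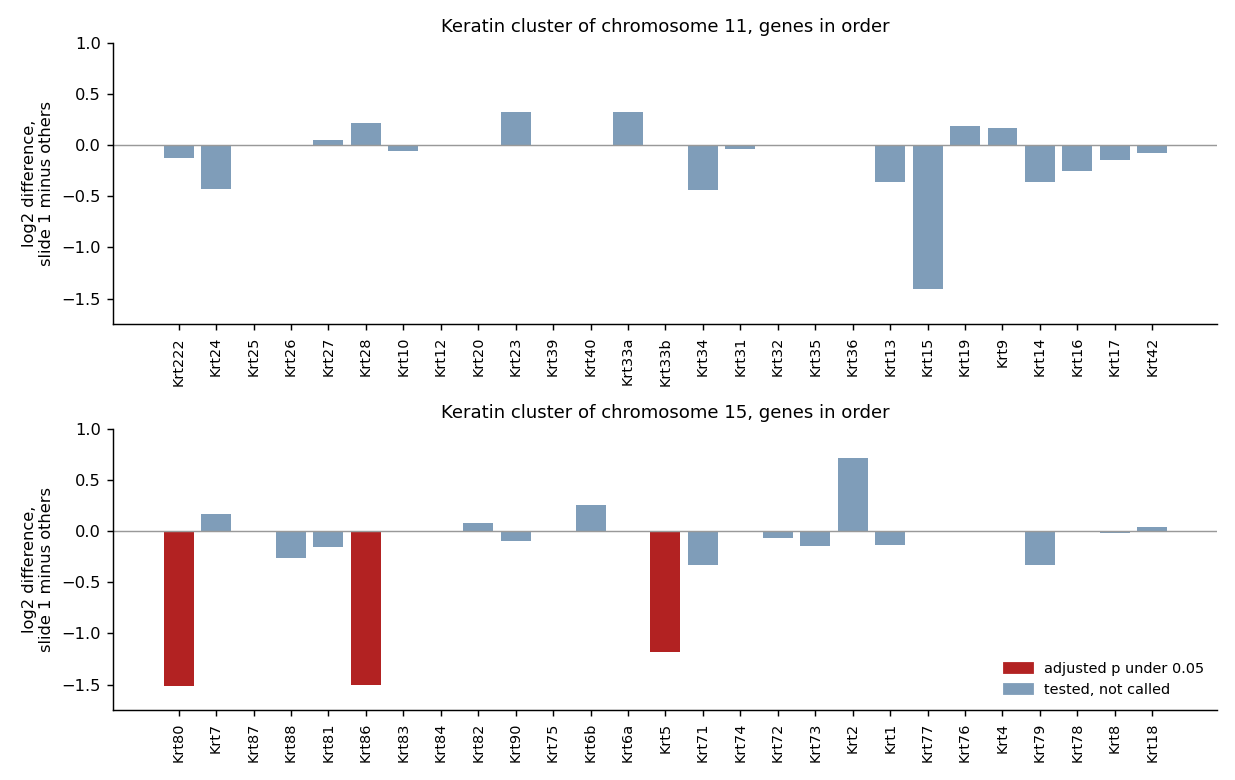
Fitted log2 difference of slide 1 from the other slides (vertical axis) for each keratin tested, in gene order along both clusters. Gaps are keratins that were not tested. Krt80, Krt86 and Krt5 are called, and their neighbours Krt7, Krt81 and Krt71 are not.

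The genes outside the family whose levels followed each simple-epithelial keratin most closely over the 8 arrays were read out of 14865 named genes above background on all arrays, as a description. For Krt7 they were Gng13 (r = 0.98), Dcaf7, Atp5c1, Ucp1 and H2az1, and for Krt19 Ubxn11 (r = 0.96), Dio3, Zfyve1, Cox6a1 and Ndrg1. For Krt8 they were Pear1 (r = 0.97), Nfkb2, AY074887, Hadha and Ear6, and for Krt18 Tollip (r = 0.95), Wfdc3, Cyth1, Tsc22d4 and Spata31d1d. All 20 coefficients were at least 0.92, but picking the highest of 14865 genes over 8 arrays gives high coefficients by itself. The lists share no gene, and no reading is drawn from this.

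The proteins that tie keratins to the cell edge showed no called difference either. Of 21 desmosome and linker genes, 14 were tested and 9 were higher over both siRNAs, with a median of 0.01. Dsc2, a desmosomal cadherin, was at 0.26 (SE 0.13) and Pkp3 at 0.12, while desmoplakin (Dsp) was at -0.29 (SE 0.35) and Dst at -0.07. Dsg1a, Dsg1b, Dsg1c, Dsg3, Dsc1 and Dsc3, cadherins of stratified epithelia, were above background on no array.

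Among 20 epithelial junction genes, all tested, 15 were lower, with a median of -0.03, from -0.20 for Ocln and -0.16 for Pard6b to 0.06 for Epcam and 0.11 for Tjp1. Of 18 epithelial transcription factors tested, 14 were higher, with a median of 0.10, from -0.24 for Tfap2a and Ehf to 0.36 for Tfap2c and 0.24 for Ovol1. The 16 other intermediate filament genes were split into 9 higher and 7 lower. Prph (peripherin), named as the highest of the 16, was at 0.47 (SE 0.06, adjusted p 0.324 from limma). Its siRNA and Control arrays did not overlap, as for 3.46% of all genes, and 2.48% of all genes did not overlap and were higher. Bfsp1 was at 0.21, while the neurofilament genes Nefl and Nefm were at -0.77 (SE 0.28) and -0.45 (SE 0.28).

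Of 50 genes for keratin-associated hair shaft proteins, 29 were tested. With siRNA 2, 25 of the 29 were lower than Control (median -0.18), and with siRNA 1, 21 were higher (median 0.05), and limma called 0 in either. The members picked by size over both siRNAs were Krtap5-2 (-0.21) and Krtap5-5 (-0.20), and Krtap26-1 (0.10) and Krtap6-5 (0.08). Between slide 1 and the others 8 of 29 were called, beside 6.48% of all genes. Of the 8, 6 were lower, beside 5.68% of all genes, and 2 higher. Those lower were Krtap5-4 (-1.74), Krtap10-4 (-1.56), Krtap6-5 (-1.16), Krtap5-2 (-1.11), Krtap31-2 (-0.81) and Krtap19-5 (-0.70), and those higher Krtap26-1 (0.89) and Krtap4-16 (0.60). Gfap, at -1.11, and Ehf, at -0.44, were called lower on slide 1 and Dlx3, a surface ectoderm gene, higher at 0.58.

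Markers of the labelled cell type were present, with 6 of 6 pluripotency genes tested and a summed level of 5.10 to 5.60 over all arrays. Keratins in these bodies could come from several early epithelia, and fewer cells of a type and less RNA per cell cannot be told apart in bulk RNA. For trophectoderm, where Krt7, Krt8 and Krt18 are made, 7 of 10 markers were tested, 6 higher and 1 lower over both siRNAs, and the summed level was 2.73 to 3.12 in Control, 2.69 to 3.61 in siRNA 1 and 3.05 to 3.36 in siRNA 2. For surface ectoderm, 6 of 6 were tested and 5 were higher, with sums of 1.81 to 2.29, 1.98 to 2.39 and 1.92 to 2.17. None of these lists had a marker at background on all arrays, and their part in the keratin values was not tested.

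Markers of primitive and visceral endoderm, which also make Krt8 and Krt18, had lower sums on the siRNA 2 arrays than on all others. Of 12 markers 11 were tested and 11 were below Control there, with a median of -1.20 and 0 called by limma. Of these 11, 1 was well above background on no siRNA 2 array and entered the tests only through other groups. Its place in the count is therefore no support, and with dim arrays at their bound the median was again -1.20. Sums were 1.81 to 1.85 against 2.42 to 3.46 in Control and 2.51 to 3.27 in siRNA 1. For parietal endoderm 10 of 10 were lower with siRNA 2 (median -0.54), with sums of 6.26 to 6.56 against 6.35 to 7.04 in Control and 6.26 to 6.79 in siRNA 1. With siRNA 1, 9 of those 10 were lower too (median -0.35). On the same 2 arrays Krt8 lay -0.06 (SE 0.16) and Krt18 -0.10 (SE 0.12) from Control. Fibroblast feeder markers, with sums of 1.90 to 2.23 over all arrays, overlapped between groups, and 8 of 10 were tested.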

How the data were processed

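The authors deposited 1 scanner file per array. Its intensity values came from Agilent Feature Extraction 10.7.3.1 with the background corrected, per the file headers. The files' own flags gave spots well above background and outliers. A deposited table gave log2 values for these arrays, scaled to the 75th percentile and centred per probe. Its columns for Control 2 and Control 3 matched the other array's scanner file (r = 1.0, against -0.05 for their own), and scanner names were kept. RMA is named in the submitters' processing notes without a stated role. With the table's names the replicate numbers would equal the slides. The scanner files' numbers were not taken as pairs, since correlations of same-numbered arrays of different groups ran from -0.04 to 0.70 and the labels give no shared culture. Arrays of 1 slide and different groups gave 0.04 to 0.70, and the fit with slide as a term stands for the table's names.

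Control spots and outliers were left out and spots of 1 probe averaged. Of 39429 probes, 26424 matched a symbol of RefSeq (GRCm38.p6). The values used were log2 processed intensity minus the array's 75th percentile. Each gene took its probe with the highest mean over 8 arrays, and the test took genes whose probe passed the background flag on all arrays of some group, in all 22423 genes. One limma 3.58.1 fit (R 4.3.3, lmFit and eBayes, 5 residual and 2.08 prior degrees of freedom) gave all siRNA comparisons, with Benjamini-Hochberg adjustment and a threshold of 0.05. A further fit held group and slide. The script was tested on simulated data. No keratin value was flagged as an outlier and 0 spots were saturated. The number of arrays limits the precision.

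The members and lists were chosen with earlier results of these data known. Every keratin tested was to be named with its arrays, and from each partner list the 2 highest and 2 lowest members plus any called, and 5 correlated genes per simple-epithelial keratin. Slide contrasts and their settings other than quantile normalization, the removal of slide 1, the median of the other keratins, the tissue classes, the promoters shown and the motifs were chosen after values were seen. Alternatives covered scaling, background correction, the deposited table, filters, probe choice, variance models, array weights, blocks and each array left out. Python 3.11.15 with pandas 2.3.3, numpy 2.4.6, scipy 1.17.1 and matplotlib 3.10.9 did the rest.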

Additional observations from a re-analysis of the deposited data

Results flagged for a closer look

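For Krt222 the arrays of the siRNAs lay on opposite sides of the Control mean. All 3 siRNA 1 arrays lay above the Control mean and both siRNA 2 arrays below it, and siRNA 2 minus siRNA 1 was -0.26 (SE 0.15). The difference itself was tested by limma and not called, with an unadjusted p of 0.13 and an adjusted p of 1.0. Against the Control array of the same slide the pattern did not hold, as siRNA 1 gave 0.50, -0.20 and 0.13 on slides 1, 2 and 3 and siRNA 2 gave 0.10 and -0.09 on slides 1 and 3. Groups of 3 or fewer arrays were not searched for single outlying arrays.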

How the results depend on the processing

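The count of keratins called was 0 in every siRNA comparison under every alternative that could be run, the replicate block (0) included, with adjusted p-values from limma no lower than 0.102. Over all genes, array weights called 24 of 22423 (0.107%) for the mean of both siRNAs. The fit on only the groups compared called 0.00446% of all genes between the siRNAs. That fit gave no value for the mean of both siRNAs, which needs all groups. Keratins not above background on all 8 arrays had no value under the filter that asks for this. Tested keratins rose from 34 to 49 with the looser flag for signal over background, so signal over background limits the dim ones. The partner lists held 0 calls under the 6 settings run. The median of the simple-epithelial keratins ran from 0.06 to 0.22 over both siRNAs, and that of the others between the siRNAs from -0.25 to -0.05 (normexp), beside -0.21. Krt5, Krt80 and Krt86 stayed called between slides in every alternative run, with smaller differences under normexp and no background correction, and the count rose from 3 to 5 under quantile normalization (with Krt2 and Krt6b) and in the test of any difference among slides (with Krt9 and Krt24). The cause of these changes was not tested. Krt6b was 0.25 higher on slide 1 in the main fit, but its second probe, above background on 4 arrays, was lower there. That probe read -7.15 to -6.43 on slide 1 and -6.04 to -5.56 on the others.

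Over both siRNAs, 20 of 34 keratins changed sign under at least 1 of 21 fitted alternatives, none with a difference above 0.24 in size, and 14 kept it. Opposite signs came with array weights for Krt5 (-0.35), Krt6b (-0.10), Krt9 (0.26), Krt24 (0.38), Krt34 (-0.09), Krt71 (-0.02), Krt80 (-0.45) and Krt222 (0.00), and without the arrays of slide 1 for Krt2 (-0.25), Krt5 (-0.04), Krt13 (-0.01), Krt34 (-0.02), Krt90 (-0.20) and Krt222 (-0.12). They came with normexp for Krt5 (-0.02), Krt6b (0.00), Krt10 (0.00), Krt13 (-0.02), Krt24 (0.01) and Krt222 (-0.01), and with no background correction for Krt1 (0.03), Krt13 (0.00), Krt24 (0.05), Krt72 (0.03) and Krt222 (0.00). Quantile normalization gave Krt16 (0.00), Krt24 (0.01) and Krt72 (0.01), the deposited table Krt16 (-0.01), dim arrays set at their bound, an alternative chosen after seeing the data, Krt34 (0.00), the mean over probes Krt10 (-0.06), the replicate block Krt1 (0.03) and Krt6b (-0.01), and slide as a term Krt6b (-0.07) and Krt24 (0.14).

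Leaving out 1 array at a time gave ranges across 0 for Krt1 (-0.30 to 0.18), Krt2 (-0.30 to 0.44), Krt5 (-0.48 to 0.34), Krt6b (-0.13 to 0.10), Krt8 (-0.14 to 0.00), Krt9 (-0.45 to 0.13), Krt10 (-0.13 to 0.14), Krt13 (-0.12 to 0.14), Krt16 (-0.05 to 0.07) and Krt24 (-0.26 to 0.32). The same held for Krt31 (-0.11 to 0.03), Krt34 (-0.16 to 0.24), Krt71 (-0.03 to 0.15), Krt72 (-0.12 to 0.04), Krt79 (-0.05 to 0.37), Krt80 (-0.52 to 0.49), Krt81 (-0.17 to 0.02), Krt88 (-0.20 to 0.01), Krt90 (-0.03 to 0.48) and Krt222 (-0.12 to 0.14). The cause was not tested.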
